A study of Mus musculus with 11 samples.

Results

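A group of 50 genes had lower transcript levels in lymphatic endothelial cells (LECs) isolated from a 24 h co-culture with HaCa4 cancer cells than in LECs grown alone. The members were chosen by their measured values. A gene was a member if its level in each of the 3 LEC-sorted libraries lay below its level in each of the 3 LEC control libraries. The genes listed for LECs appear to be the study's own calls from this same contrast, so they are a selected set and no neutral background. Of the 191 listed genes, 64 had a lower mean in LEC-sorted. Of these 64, 63 met the criterion, which is 33.0% of the listed genes. From these, 9 genes that are listed for HaCa4 cells too (*Gas6*, *Id2*, *Kdr*, *Mest*, *Sfrp1*, *Sncg*, *Timp3*, *Ceacam1*, and *Kcnf1*) and 4 further genes (*Ass1*, *Atoh8*, *Bmp6*, and *Fosb*) were left out. Because the contrast between sorted and control libraries chose the genes, their differences are given as a description and without a test.

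The LECs are dermal lymphatic endothelial cells of the imLEC line, made conditionally immortal by a transgene for a temperature-sensitive SV40 large T antigen under the H-2Kb promoter. The study used 2 LEC clones interchangeably. HaCa4 is a mouse skin squamous carcinoma line with an oncogenic H-Ras mutation. LEC control (n = 3) came from single culture. LEC-sorted (n = 3) came from co-culture, was stained for CD31, and was isolated by FACS away from CFSE-labelled HaCa4 cells. Staining and sorting are described only for the co-cultured cells, so an effect of co-culture and an effect of sorting cannot be told apart. LECs are grown with IFN-γ, which keeps the large T antigen on, and the study withdrew it at a higher temperature for functional assays. Which of these conditions held for the RNA samples is not given in the sources used here. The levels are TPM, transcript levels scaled for gene length and for the total of the library, which can be compared between genes. In bulk RNA, fewer cells that express a gene and less RNA of that gene per cell cannot be told apart.

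Lymphatic endothelial cells line the vessels that drain tissue fluid and carry leukocytes to lymph nodes. Their shape and junctions depend on an intermediate filament and actin cytoskeleton, and like other endothelia they carry enzymes that detoxify heme, peroxides, and electrophiles. When endothelial cells meet inflammatory signals they switch on adhesion receptors and chemokines. The genes described here belong to the other side of the comparison, those with less RNA in LEC-sorted.

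The libraries were checked against marker genes. Of 22 lymphatic and pan-endothelial markers only *Pdpn* and *Kdr* were among the listed genes, and the other markers were not analysed here. *Pdpn*, encoding podoplanin, was at 155.26, 97.01, and 179.3 TPM in LEC control 1 to 3, in that order here and throughout, and 435.92, 379.8, and 239.08 TPM in LEC-sorted 1 to 3. *Kdr*, encoding VEGF receptor 2, was at 147.29, 171.5, and 136.83 TPM in single culture and 88.48, 97.37, and 116.71 TPM after co-culture. Both were therefore present in every library. Of 25 keratinocyte and carcinoma markers only *Krt8* was listed, at 0 in all controls and at 0.19, 2.19, and 0.89 TPM in sorted libraries 1 to 3. Of 15 leukocyte and fibroblast markers only *Dcn* was listed, with controls between 0.07 and 0.6 TPM and sorted libraries at 13.56, 88.88, and 30.08 TPM. Sorted library 1 had the lowest *Krt8* and the lowest *Dcn* of the 3 sorted libraries, and it also had the lowest level of 38 of the 50 genes described here. The part of other cell types in these differences was not tested.

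The differences were moderate in size. The study called genes past a minimum fold change, and the listed genes appear to be those calls. The small end of the range was thus bounded in advance, and 48 of the 50 members lay past a log2 difference of -0.5. The mean TPM in LEC-sorted was between 34.9% and 72.7% of the control mean, with a median of 54.0%. It was under 50% in 17 genes and between 50% and 75% in the other 33. On the log2(TPM + 1) scale, the difference of sorted minus control ranged from -1.30 to -0.46 with a median of -0.81, beside a median of 0.87 over all 191 listed genes. When the libraries were brought to a common median of the listed genes, which moved all differences by a median of -0.61, the median of the members was -1.41 beside 0.27 for all listed genes. All 50 members still lay lower in every sorted library, which was certain in advance. The listed medians were 22.95 to 25.83 TPM in the controls and 33.78 to 41.56 TPM in LEC-sorted. The scaling therefore lowered every sorted library relative to every control. The 122 listed genes that were higher in every sorted library, 63.9% of the list, had differences between 0.44 and 7.19. No member was listed at 0 in any library. Control means spanned 3.29 to 6263 TPM, with 16 genes at 100 TPM or more, 27 between 10 and 100 TPM, and 7 below 10 TPM.

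**Figure D1:**
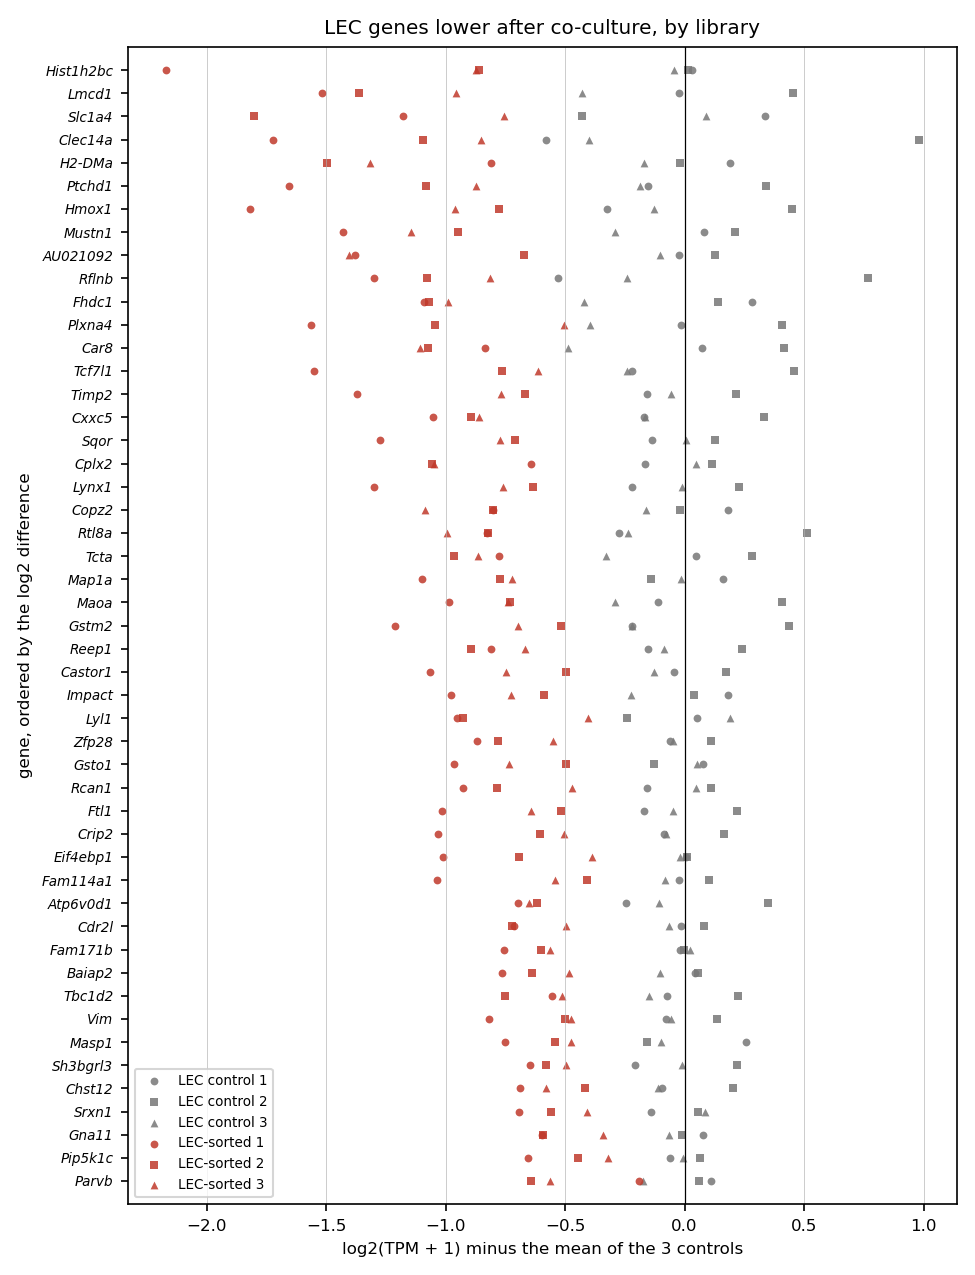
Each row is 1 of 49 of the 50 genes, ordered by its log2 difference, and the horizontal axis is log2(TPM + 1) minus the mean of the 3 LEC controls. Grey symbols are LEC control and red symbols LEC-sorted, with a shape for each replicate number. *Hist1h2bc* is at the top (-1.30), a place that rests on LEC-sorted 1 (-0.87 without it), and *Parvb* is at the bottom (-0.46), where red and grey nearly touch.

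Summed over the 50 genes, the controls held 15730, 19458, and 16324 TPM, and LEC-sorted held 8859, 11542, and 11391 TPM. The group thus made up between 1.57% and 1.95% of all transcripts in the controls and between 0.89% and 1.15% in LEC-sorted. The mean sum was 17171 ± 2003 TPM (SD, n = 3) in the control and 10597 ± 1507 TPM (SD, n = 3) in LEC-sorted, or 61.7% of it. *Vim* alone accounted for 32.1% of the TPM difference and *Ftl1* for a further 26.1%. With *Hmox1* and *Crip2* these genes made up 73.2% of it, so the summed level describes a few abundant transcripts rather than the whole group.

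The genes were arranged by what their products do, a grouping made after the values had been seen and used only to order the description. A set of 6 genes encodes proteins of redox defence and iron or sulfide handling, *Hmox1*, *Ftl1*, *Gsto1*, *Gstm2*, *Srxn1*, and *Sqor*. Their sorted means were between 44.8% and 67.6% of the control means. The sum of these 6 genes was 5347, 7117, and 5814 TPM in single culture and 2774, 4106, and 3723 TPM after co-culture.

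*Hmox1* encodes heme oxygenase 1, which breaks heme down to biliverdin, carbon monoxide, and iron. It was at 789.74, 1350.3, and 905.8 TPM in single culture and 279.22, 576.98, and 508.18 TPM after co-culture. Every sorted library lay below the lowest control, although both groups spread widely. The mean was 1015 ± 296 TPM (SD, n = 3) in the control and 455 ± 156 TPM (SD, n = 3) after co-culture, and the log2 difference was -1.18 (standard error 0.40). *Hmox1* lies on chromosome 8 from 75093618 to 75100593 of GRCm38.p6.

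*Ftl1*, the light chain of the iron store ferritin, was the second most abundant member. It was at 3861.16, 5056.98, and 4209.16 TPM in single culture and 2148.19, 3042.19, and 2787.39 TPM after co-culture. Its log2 difference was -0.72 (standard error 0.19). *Ftl1* lies on chromosome 7 from 45457944 to 45459886, and ferritin light chain has near-identical copies in the mouse genome, so reads could have been split between them. Both *Hmox1* and *Ftl1* had control 2 as the highest and sorted library 1 as the lowest library.

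*Gsto1* and *Gstm2* encode glutathione transferases of the omega and mu classes, which couple glutathione to electrophiles. *Gsto1* was at 506.88, 438.94, and 497.81 TPM in single culture and 245.47, 340.15, and 288.44 TPM after co-culture, a log2 difference of -0.73 (standard error 0.15). *Gstm2* was at 117.37, 185.93, and 117.6 TPM in single culture and 58.55, 95.51, and 84.18 TPM after co-culture. The mu-class genes are close relatives of each other, and the value of *Gstm2* is uncertain to that extent. *Gsto1* was the only gene of the set in which control 2 was the lowest control.

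*Srxn1* encodes sulfiredoxin, which restores over-oxidised peroxiredoxins, and *Sqor* encodes the mitochondrial enzyme that oxidises sulfide. *Srxn1* was at 47.74, 54.87, and 55.97 TPM in single culture and 32.25, 35.44, and 39.5 TPM after co-culture. *Sqor* was at 24.54, 29.66, and 27.17 TPM in single culture and 10.61, 16.13, and 15.42 TPM after co-culture. The relative difference was smallest in *Srxn1*, at 67.6% of the control mean, and *Sqor* reached 51.8%.

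**Figure D2:**
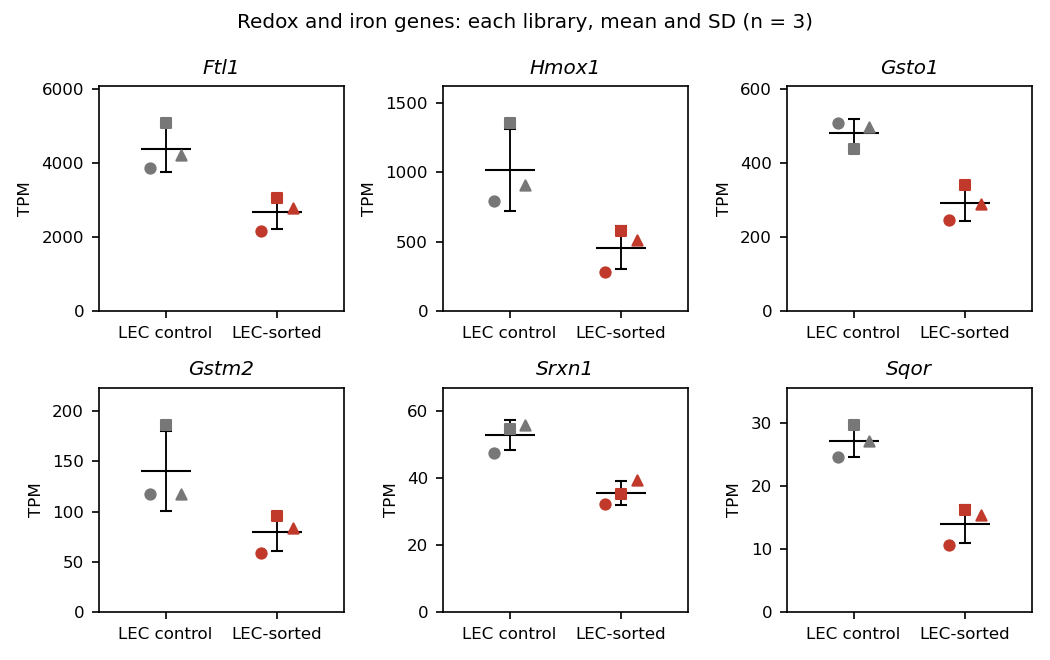
The 6 panels show TPM, on linear axes from 0, of the redox and iron genes in each of the 3 LEC control and 3 LEC-sorted libraries, with symbols for replicates 1 (circle), 2 (square), and 3 (triangle). Bars give the mean and SD (n = 3). The groups do not overlap in any panel, as the choice of genes requires, and sorted library 1 is the lowest in all 6.

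The cytoskeleton and cell-shape genes were *Vim*, *Crip2*, *Parvb*, *Baiap2*, *Map1a*, *Rflnb*, and *Fhdc1*, with sorted means between 41.5% and 72.7% of the control. *Vim* encodes vimentin, the intermediate filament protein of mesenchymal and endothelial cells, and was the most abundant member. It was at 5918.9, 6869.16, and 6000.9 TPM in single culture and 3548.08, 4419.53, and 4493.49 TPM after co-culture. The mean was 6263 ± 527 TPM (SD, n = 3) against 4154 ± 526 TPM (SD, n = 3), a log2 difference of -0.60 (standard error 0.13). *Vim* lies on chromosome 2 from 13574311 to 13582826.

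*Crip2*, a LIM-domain protein abundant in heart and vessels, was at 1034.62, 1230.46, and 1039.26 TPM in single culture and 537.15, 722.2, and 772.45 TPM after co-culture. *Baiap2* encodes IRSp53, which links small GTPases to membrane curvature and actin. It was at 52.3, 52.75, and 47.06 TPM in single culture and 29.4, 32.19, and 35.96 TPM after co-culture, a log2 difference of -0.63 (standard error 0.10). The spread of *Baiap2* within each group was small, at 6.24% of the mean in the control and 10.1% in LEC-sorted.

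*Rflnb* encodes refilin B, a partner of the actin crosslinker filamin, and was at 30.61, 76.77, and 37.62 TPM in single culture and 17.52, 20.62, and 24.92 TPM after co-culture. Control 2 alone accounted for much of its control mean, and the other controls lay nearer to the sorted libraries. Its log2 difference was -1.06, and -0.68 without control 2. *Parvb*, a focal adhesion protein that binds integrin-linked kinase, was at 161.65, 156.05, and 132.58 TPM in single culture and 131.01, 95.53, and 100.94 TPM after co-culture. Its lowest control was only 1.01 times its highest sorted value, the narrowest gap of all members.

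*Map1a*, which encodes a microtubule-associated protein, was expressed at a low level. It was at 3.88, 2.96, and 3.32 TPM in single culture and 1.04, 1.56, and 1.65 TPM after co-culture, and it had the widest gap of all members, with the lowest control at 1.79 times the highest sorted library. *Fhdc1*, a formin, had a sorted mean of 41.5% of its control mean of 8.98 TPM. Of the 48 genes in a list for actin, adhesion, and cell shape, 2 were listed for LECs, and *Baiap2* was the one that was lower. That list does not hold *Vim* or the other cytoskeleton genes described here.

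A total of 7 genes encode transcription factors, co-regulators, or a histone. *Hist1h2bc*, a histone H2B gene named *H2bc4* in RefSeq, was at 105.18, 103.98, and 99.74 TPM in single culture and 22.07, 56.27, and 55.78 TPM after co-culture. The controls differed by few TPM while sorted library 1 was far below the other two. The log2 difference was -1.30 (standard error 0.44), and -0.87 without sorted library 1, and -0.89 between group medians, where it was smaller than that of *Lmcd1* (-1.34) or *AU021092* (-1.36). Histone H2B genes are near-identical in sequence, so that this value is uncertain. *Lmcd1*, a LIM-domain co-regulator of GATA factors, was at 11.88, 16.91, and 8.72 TPM in single culture and 3.57, 4.09, and 5.75 TPM after co-culture, 35.8% of the control mean. *Mustn1*, a small nuclear protein of the musculoskeletal system, was at 27.43, 30.14, and 20.98 TPM in single culture and 8.98, 12.95, and 11.15 TPM after co-culture.

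*Tcf7l1*, a TCF/LEF factor that acts at Wnt target genes, was at 27.53, 44.71, and 27.15 TPM in single culture and 10.34, 18.55, and 20.74 TPM after co-culture. *Lyl1*, a basic helix-loop-helix factor of blood and endothelial cells, was at 43.19, 35.05, and 47.59 TPM in single culture and 21.05, 21.4, and 31.18 TPM after co-culture. The zinc finger genes *Cxxc5* and *Zfp28* had sorted means of 50.7% and 56.1% of the control. In the set as a whole the sorted means were between 35.8% and 58.5% of the control means.

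At the cell surface and in the matrix, 8 genes were lower, from receptors to a secreted inhibitor. *Clec14a*, an endothelial C-type lectin-like glycoprotein, was at 44.29, 132.91, and 50.34 TPM in single culture and 19.56, 30.76, and 36.6 TPM after co-culture. It had the largest control spread of all members, with a coefficient of variation of 65.3% and control 2 far above the other controls. Its log2 difference was -1.22, and -0.73 without control 2. *Timp2*, an inhibitor of matrix metalloproteases, was at 453.38, 587.01, and 487.16 TPM in single culture and 194.97, 317.9, and 296.5 TPM after co-culture, a log2 difference of -0.94 (standard error 0.25). *Plxna4*, a receptor for semaphorins, was at 8.92, 12.28, and 6.62 TPM in single culture and 2.39, 3.85, and 6.05 TPM after co-culture. Of the 59 genes in a list for guidance, growth factor, and receptor signalling, 4 were listed for LECs, and *Plxna4* was the only member among them.

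*H2-DMa* encodes a chain of the chaperone that loads peptides onto MHC class II, and it had the lowest relative level of all members, at 34.9% of control. It was at 7.12, 6.01, and 5.32 TPM in single culture and 3.06, 1.52, and 1.86 TPM after co-culture. *Ptchd1*, a patched-domain membrane protein, was at 10.13, 14.71, and 9.88 TPM in single culture and 2.93, 4.86, and 5.76 TPM after co-culture. *Masp1*, a serine protease of the lectin pathway of complement, was at 125.85, 94.14, and 97.96 TPM in single culture and 62.02, 71.83, and 75.32 TPM after co-culture. *Chst12*, a chondroitin sulfotransferase, reached 67.3% of the control mean, and *Lynx1*, a membrane-anchored Ly6 protein, 50.8%.

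Genes of nutrient sensing and translation control were *Eif4ebp1*, *Impact*, *Castor1*, and *Slc1a4*. *Eif4ebp1* encodes 4E-BP1, which holds back cap-dependent translation until mTORC1 phosphorylates it. It was at 327.57, 328.49, and 321.39 TPM in single culture and 161.17, 200.89, and 249.12 TPM after co-culture. Its controls were the closest of all members, with a coefficient of variation of 1.19%, whereas the sorted libraries varied by 21.6%. *Slc1a4*, a transporter of neutral amino acids, was at 15.88, 8.93, and 13.2 TPM in single culture and 4.9, 2.83, and 6.9 TPM after co-culture, 38.5% of the control mean. *Castor1*, an arginine sensor upstream of mTORC1, and *Impact*, which restrains the amino acid sensing kinase GCN2, were at 57.0% and 57.3% of control.

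The signalling genes were *Gna11*, *Pip5k1c*, *Rcan1*, and *Car8*, with sorted means between 46.9% and 72.0% of the control. *Gna11*, an alpha subunit of the Gq family, was at 110.67, 104.24, and 100.18 TPM in single culture and 69.12, 69.24, and 82.53 TPM after co-culture. *Pip5k1c*, a kinase that makes the membrane lipid PIP2, was at 91.88, 100.24, and 95.44 TPM in single culture and 60.49, 69.98, and 76.54 TPM after co-culture. The 2 genes lie 209 kb apart on chromosome 10, the closest pair of members. *Rcan1*, an inhibitor of the phosphatase calcineurin, was at 60.0% of control, and *Car8*, a carbonic anhydrase-related protein that binds the IP3 receptor, at 46.9%. *Reep1* and *Tcf7l1* on chromosome 6, 816 kb apart, were the only other pair of members within 1 Mb.

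Membrane traffic and organelle genes were lower as well, with sorted means between 48.7% and 64.8% of control. *Atp6v0d1*, a subunit of the proton pump that acidifies endosomes and lysosomes, was at 159.71, 241.76, and 175.92 TPM in single culture and 116.49, 123.11, and 120.24 TPM after co-culture. Its sorted libraries varied by only 2.77% of their mean, the least of all members. *Copz2* (COPI coat), *Cplx2* (a complexin of vesicle fusion), *Tbc1d2* (a regulator of the GTPase Rab7), *Reep1* (shaping of the endoplasmic reticulum), and *Maoa* (monoamine oxidase A of the mitochondrial outer membrane) made up the rest.

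The remaining 7 genes were *Sh3bgrl3*, *Rtl8a*, *AU021092*, *Tcta*, *Cdr2l*, *Fam171b*, and *Fam114a1*. *Sh3bgrl3*, a small thioredoxin-like protein, was at 810.14, 1089.91, and 928.11 TPM in single culture and 597.77, 625.54, and 662.75 TPM after co-culture. *Rtl8a*, a gene derived from a retrotransposon with close relatives on the X chromosome, was at 122.06, 211.34, and 125.19 TPM in single culture and 83.02, 83.1, and 73.68 TPM after co-culture. *AU021092* was at 14.56, 16.28, and 13.73 TPM in single culture and 5.08, 8.94, and 4.98 TPM after co-culture. The others had sorted means between 52.5% and 63.7% of control.

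**Figure D3:**
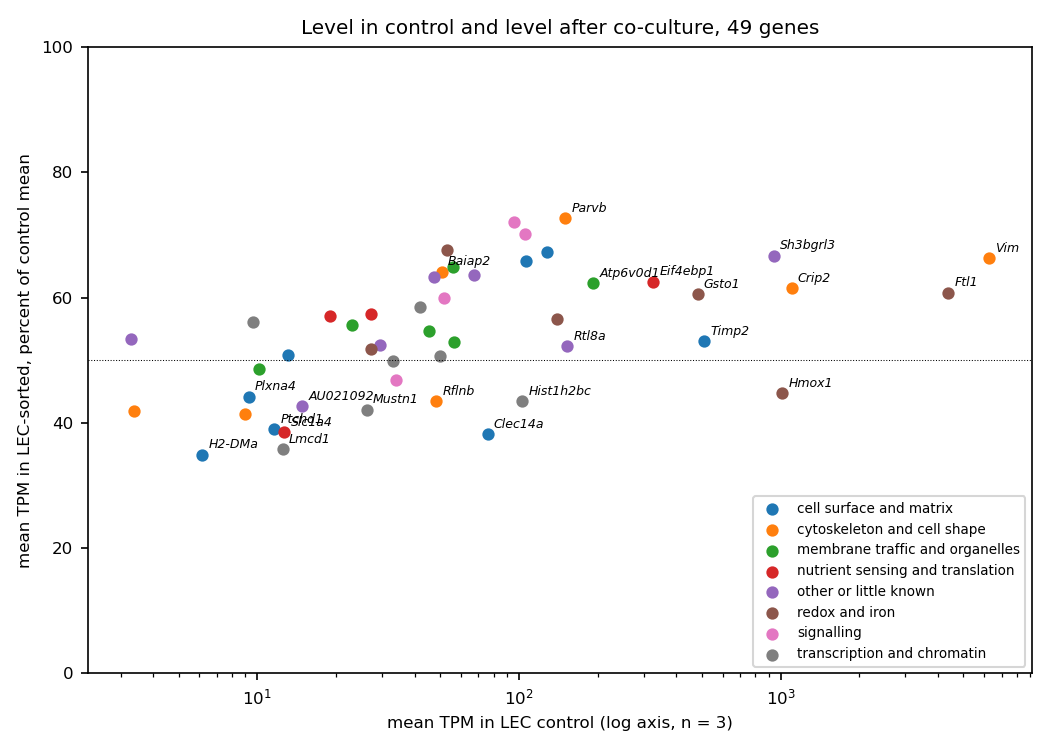
Mean TPM in LEC control (log axis, n = 3) is plotted against the LEC-sorted mean as a percentage of the control mean for 49 of the 50 genes, coloured by role, with a dotted line at 50%. The genes lie between 34.9% (*H2-DMa*) and 72.7% (*Parvb*), and of the 4 most abundant genes only *Hmox1*, at 44.8%, is below the line.

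At the border of the criterion, the lowest control was under 1.1 times the highest sorted value in 3 genes, among them *Parvb* and *Plxna4*. Just outside it was *Pmp22*, encoding a myelin and epithelial junction membrane protein. It was at 79.22, 45.68, and 73.22 TPM in single culture and 24.49, 35.86, and 45.68 TPM after co-culture, so that control 2 and sorted library 3 had the same value. *Pmp22* was the only listed gene with a lower sorted mean that did not meet the criterion. In 12 members the lowest control was at least 1.5 times the highest sorted value.

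The order of the libraries within a group, which the criterion did not use, was shared by many members. Control 2 was the highest control in 35 of the 50 genes and control 3 in 3. Sorted library 1 was the lowest sorted library in 38 genes, library 2 in 8, and library 3 in 4. Both features were present in 27 genes, among them *Vim*, *Ftl1*, *Hmox1*, *Crip2*, *Timp2*, and *Clec14a*. Because each feature was common by itself, no link between them is read from this count. Sorted library 1 was instead the highest of the sorted libraries in *Car8*, *Copz2*, *Cplx2*, *H2-DMa*, *Parvb*, and *Tcta*. Among the 122 genes that were higher in every sorted library, control 2 was the highest control in 56, and sorted library 1 was the lowest in 43 and sorted library 3 in 67. The genes share libraries and are not independent, so no test was made of these counts.

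**Figure D4:**
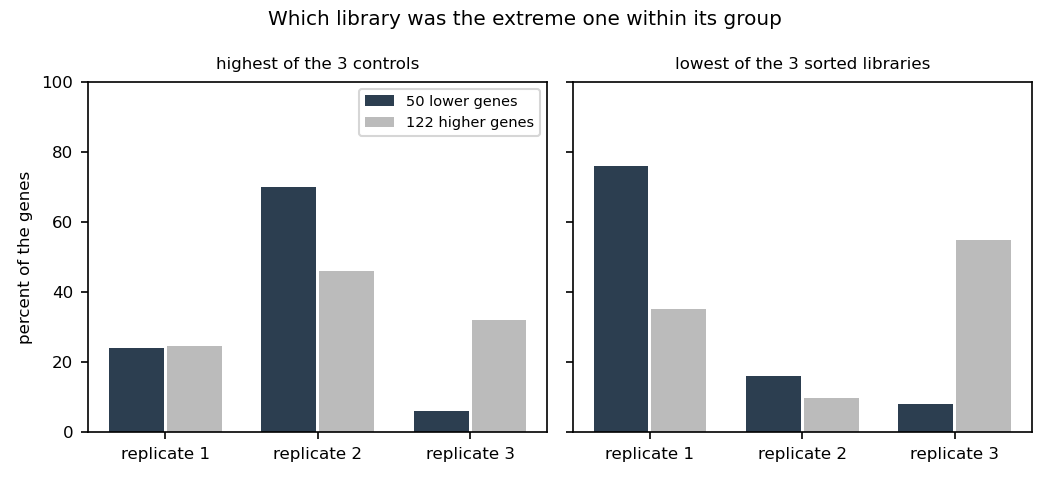
The left panel gives the percentage of genes in which each replicate is the highest of the 3 LEC controls, and the right panel that in which it is the lowest of the 3 LEC-sorted libraries. Dark bars are the 50 lower genes and grey bars the 122 genes higher in every sorted library. Among lower genes, control 2 is the highest in 35 and sorted library 1 the lowest in 38.

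Promoters were examined for sequence features, which the criterion did not use. RefSeq windows of GRCm38.p6, from 250 bases before to 50 bases after a start site, were used for 37 of the 50 genes, in 41 windows. Among those not analysed here were the windows of *AU021092*, *Car8*, *Cdr2l*, *Cxxc5*, *Eif4ebp1*, *Fam171b*, *Hist1h2bc*, *Hmox1*, *Impact*, *Lynx1*, *Masp1*, and *Plxna4*. Their median GC content was 65.0%, beside 57.3% in the 115 windows of the genes higher in every sorted library and 52.7% in all 32851 windows. A ratio of observed to expected CpG of at least 0.6, a common mark of CpG-rich promoters, was present in 28 of the 41 windows (68.3%), in 43.5% of the windows of the higher genes, and in 35.8% of all windows.

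The motif GGCGCC, to which SMAD1/5 complexes of the BMP pathway are known to bind, was present in 13 of the 41 windows (31.7%), in 13.9% of the windows of the higher genes, and in 11.9% of all windows. The motif is its own reverse complement, and it consists of G and C alone. Among CpG-rich windows only, 12 of 28 member windows held it (42.9%), beside 30.0% of those of the higher genes and 27.5% of all. Within CpG-rich windows the share of the members was thus nearer, as a ratio, to that of all windows than without this restriction. Counting only the bases before the start site, 22.0% of the member windows held it. That share was not computed for the other windows, so it cannot be set against the values above. Matches before the start site are given in capitals for *Crip2*, *Atp6v0d1*, and *Rtl8a*, members with high control levels, 5′ to 3′ on the strand of the gene.
Crip2: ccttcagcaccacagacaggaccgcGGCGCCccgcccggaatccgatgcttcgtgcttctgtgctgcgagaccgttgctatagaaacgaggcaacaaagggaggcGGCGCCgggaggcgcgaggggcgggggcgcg
Atp6v0d1: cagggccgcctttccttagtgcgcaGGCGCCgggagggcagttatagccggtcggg
Rtl8a: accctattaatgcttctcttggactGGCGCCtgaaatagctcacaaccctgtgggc
*Crip2* (chr12:113140079-113140214, plus strand) held 2 matches, starting 132 and 52 bases before the start site. *Atp6v0d1* (chr8:105566141-105566196, minus strand) and *Rtl8a* (chrX:53643853-53643908, minus strand) held 1 each, starting 107 and 120 bases before it.

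The other motifs covered common promoter elements and factors of inflammation and stress. The TATA box (TATAAA) was present in 9.76% of the member windows, in 22.6% of those of the higher genes, and in 13.6% of all. The NF-κB motif, GGG and TTTCC with 2 bases between them, was present in 4.88% of member windows, namely those of *Vim* and *Map1a*, in 13.0% of the windows of the higher genes, and in 1.63% of all. The AP-1 element TGANTCA was found in 7.32%, 15.7%, and 7.81%, and *Srxn1* held 2 copies, starting 102 and 45 bases before its start site. The antioxidant response element TGACNNNGC, searched after the redox genes had been seen, was in 12.2% of member windows, 10.4% of those of the higher genes, and 12.4% of all. Of the redox and iron genes with a window only *Srxn1* held it, after the start site and on the opposite strand. These windows are short and hold no distal enhancer, and a match is a stretch of letters, not a measured binding site.

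Matches to the cyclic AMP response element TGACGTCA, bound by CREB and ATF factors, were in *Lmcd1* and *Rcan1*, which is 4.88% of member windows, 1.74% of those of the higher genes, and 1.79% of all. That of *Lmcd1* started 130 bases before its start site (chr6:112273603-112273660, plus strand). *Vim* held a TATA box at the usual distance, starting 32 bases before its start site (chr2:13574254-13574309, plus strand). The motifs are in capitals in both sequences, shown because *Lmcd1* was among the members with the largest differences and *Vim* the highest level.
Lmcd1: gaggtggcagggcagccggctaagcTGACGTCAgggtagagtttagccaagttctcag
Vim: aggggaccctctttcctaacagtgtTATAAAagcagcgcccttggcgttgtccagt
For the remaining motifs, the member share, the share among the higher genes, and the share of all windows were read in that order. The CCAAT box had 43.9%, 33.9%, and 37.4%. The GC box GGGCGG had 68.3%, 52.2%, and 35.7%, and the CACCC box 73.2%, 59.1%, and 57.5%. The E-box CANNTG had 63.4%, 60.9%, and 72.3%, the ETS core GGAAG 70.7%, 73.9%, and 71.4%, and the hypoxia element ACGTG 26.8%, 22.6%, and 19.6%. The short SMAD element GTCTG had 41.5%, 36.5%, and 49.6%. The palindromic SMAD-binding element GTCTAGAC was in the window of *Reep1* alone (2.44%, 0%, and 0.213%), and the interferon motif, GAAA repeated after 2 bases, in that of *Sqor* alone (2.44%, 4.35%, and 3.44%). All searches covered both strands. The E-box and the hypoxia element overlap where both occur in the letters CACGTG.

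Shares were also compared among CpG-rich windows alone, with 28 such windows of members behind each value. The TATA box was in 10.7% of those of members (3 of 28) and 5.98% of all. The E-box was in 64.3% (18 of 28) and 58.7%, and the antioxidant motif in 17.9% (5 of 28) and 14.7%. These gaps are small for 28 windows, so no order is read from them. The AP-1 element, with 3.57% against 3.46%, rests on 1 member window and gives no order. No CpG-rich member window held the cyclic AMP response element or the palindromic SMAD-binding element, beside 3.65% and 0.221% of all. Such rare motifs can be absent from 28 windows without a lower share, so no order is read from this. Against the CpG-rich windows of the higher genes, the E-box was in 64.3% against 40.0% (20 of 50). The ETS core, with 71.4% (20 of 28) against 68.0% (34 of 50), was too near to equal to give an order. For the cyclic AMP response element, 0% stood against 2.0%, which is 1 of 50 windows and gives no order. The TATA box was in 10.7% of the CpG-rich member windows (3 of 28) against 18.0% of those of the higher genes (9 of 50). For the NF-κB motif, 3.57% against 8.0% is 1 of 28 against 4 of 50 windows and gives no order. The GC box was in 89.3% of the CpG-rich member windows (25 of 28) and 88.0% of those of the higher genes (44 of 50). It was in 72.3% of all CpG-rich windows. The higher share of members over the higher genes, seen for the GC box without this restriction, was thus not seen among CpG-rich windows.

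**Figure D5:**
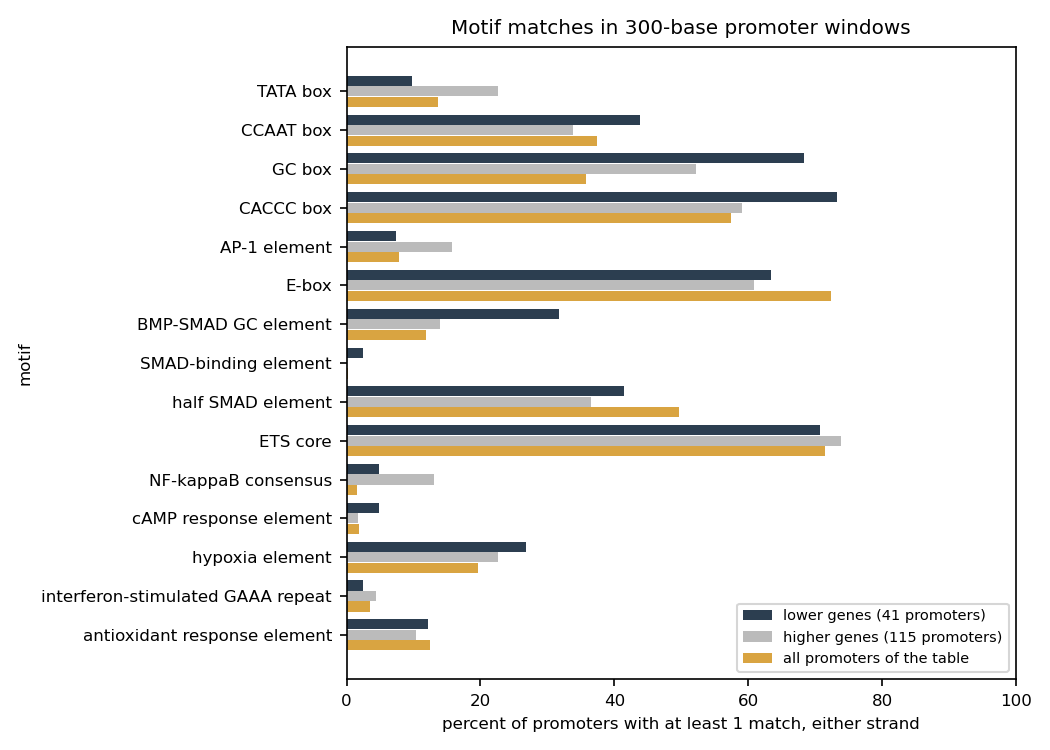
Bars give the percentage of promoter windows with at least 1 match on either strand for 15 motifs, in 41 windows of the lower genes (dark), 115 windows of genes higher in every sorted library (grey), and all windows of the table (yellow). The GC element of BMP-SMAD complexes stands at 31.7% in the lower genes against 11.9% of all windows, and the TATA box and NF-κB motif are more frequent in the higher genes, at 22.6% and 13.0%. Among CpG-rich windows alone, not drawn here, the GC element is in 42.9% (12 of 28) of the lower genes' windows, 30.0% of the higher genes' windows, and 27.5% of all.

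The members were also set against lists of endothelial, pathway, and cell-cycle genes. Beside *Baiap2* and *Plxna4*, no member belonged to any of the 14 lists. The lists do not hold every gene of their theme. *Tcf7l1*, *Timp2*, *Slc1a4*, and *Vim*, described above with such roles, are in none of them. Of 42 genes of the BMP, TGF-beta, and SMAD pathway, 4 were listed for LECs and 3 were lower in every sorted library, *Bmp6*, *Id2*, and *Atoh8*, which are not members, while 1 was higher. Over all 191 listed genes, 33.0% were lower and 63.9% higher in every sorted library. At most 4 genes of a list were listed, and the lists were chosen with earlier results of these data known. No list was tested. None of the 15 Notch genes and none of the 30 cell cycle and DNA replication genes was among the 191 listed genes. The listed genes are a selected set, so absence from it gives no level for these genes. Of 34 interferon-response genes 1 was listed and was higher. Of 24 Wnt, 24 immediate-early, 41 extracellular matrix, 42 ion channel and transporter, and 42 lipid and metabolism genes, 1 of each list was lower, *Sfrp1*, *Fosb*, *Timp3*, *Kcnf1*, and *Ass1*, which are not members either. In these lists 0, 2, 1, 2, and 1 genes, in the same order, were higher in every sorted library. In the actin list 1 gene was higher, and in the guidance list 2 were higher and *Gas6* was lower beside *Plxna4*.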

How the data were processed

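After read filtering by SOAPnuke, the authors used HISAT2 (version 2.0.4 in the submitters' processing notes) for alignment to GRCm38.p6 and DESeq2 for differential expression. The deposited tables give TPM with 2 decimals for 191 LEC and 290 HaCa4 genes. The LEC genes, as many as the study reports as deregulated, are a selection that holds between 2.51% and 3.85% of the TPM of a library. The depth is unknown, so no counting error can be given. The tool that gave TPM is not given in the sources used here. No label says that replicates were separate cultures, so the spread between them may be technical.

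Members were found by comparing TPM across the 6 LEC libraries, and the HaCa4 files served only to leave out shared symbols. Differences are means of log2(TPM + 1), sorted minus control, with standard errors from the group SDs. The step was also run on simulated data with the same spread in every gene. That run checks the calculation of the differences only and does not bear on the members. The members and the lists were chosen with earlier results of these data known. All but 1 of the members are named, and that gene is counted in sums and counts but not reported here. Named members are given with each library's value for the 10 largest differences, the 10 highest control means, and members of a list, and for some further members chosen after their values were seen. The CpG comparison and the antioxidant motif were added after seeing the data. Coordinates and promoters came from RefSeq by Entrez ID, for 50 and 37 genes. Python 3.11.15, pandas 2.3.3, and matplotlib 3.10.9 were used.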

Additional observations from a re-analysis of the deposited data

How the results depend on the processing

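The direction of the difference did not reverse for any member under any alternative. For the pseudocounts, filters, group medians, left-out libraries, and comparison of same-numbered libraries, the criterion fixed this outcome. It places every sorted value of a member below every control value. The median log2 difference of -0.81 became -0.66 with a pseudocount of 5 and -1.41 when each LEC library was scaled to the same median of the listed genes. That scaling moved the listed genes by a median of -0.61, and a selected list with more higher than lower genes gives no unbiased scale, so the members were described unscaled. All 50 met the criterion scaled as well, which was certain because the scaling lowered every sorted library relative to every control. The median was -0.86 with a pseudocount of 0.1, -0.73 with group medians, and between -0.87 and -0.69 when 1 library was left out, which moved 3 members, *Clec14a*, *Rflnb*, and *Hist1h2bc*, by over 1.5 times. The count of 63 genes became 49, and that of 50 members 38, with a mean of at least 10 TPM. Without control 2 or sorted library 3, with scaling, or with the replicate block (each sorted library against the control of the same number), *Pmp22* also met the criterion, giving 64 genes and 51 members. The replicate block left the median at -0.81. Deviations of same-numbered libraries from their group means correlated at 0.23, 0.07, and -0.02 over the 191 genes, where control 2 correlated better with sorted library 3 (0.15). Over the 50 members they correlated at 0.35, 0.24, and 0.04, and each control correlated best with the sorted library of its own number, while sorted library 3 correlated best with control 2 (0.09). Not every pair passed 0.1 in either set of genes, so the numbers were not used to pair libraries, and a weak pairing was not tested further. No group had the 4 libraries that a check for outlying libraries needs. Among the motif searches, 2 alternatives chosen after seeing the data were tried. On the strand of the gene alone, no member window held the antioxidant or the interferon motif, and the share was 39.0% in place of 73.2% for the CACCC box, 39.0% in place of 70.7% for the ETS core, 14.6% in place of 26.8% for the hypoxia element, and 2.44% in place of 4.88% for the NF-κB motif. For the bases before the start site alone, it was 7.32% for the antioxidant motif and 2.44% for the NF-κB motif. A search of 1 strand, or of fewer bases, cannot give more matches.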
